A study of Mus musculus with 6 samples.

Results

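The 44 genes described here encode lysosomal proteins and their transcription factors in samples sorted from mouse bone marrow as megakaryocytes (MKs), the cells that release platelets. They were taken by symbol from a fixed list: 10 cathepsins and other proteases, 11 glycosidases, 6 sulfatases, 8 lipid enzymes and lipid-binding proteins, 6 membrane proteins and the 3 MiT/TFE factors Tfeb, Tfe3 and Mitf. All 44 were among the 16579 genes of the expression table, and all 44 were among the 12256 genes kept by the expression filter. RNA of cells sorted as MKs by flow cytometry was sequenced in 6 libraries from 3-month-old mice, 3 of genotype Becn1f/f and 3 of genotype Becn1f/f;Pf4-iCre. Both genotypes carry the floxed Becn1 alleles, and the latter also carries the iCre recombinase driven by regulatory sequence of Pf4, a gene of MKs and platelets. Becn1 encodes Beclin 1, a subunit of the lipid kinase complex that starts autophagosomes. The labels number the libraries of each genotype but do not say whether each was 1 animal. The P values below therefore set the genotype difference against the spread between these libraries, which may not be that between animals.

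Lysosomes are acidic organelles in which hydrolases break down proteins, glycans and lipids delivered by endocytosis and by autophagy. Most soluble hydrolases carry a mannose 6-phosphate tag that sorts them to the organelle, and the proton pump V-ATPase keeps its lumen acidic. TFEB, TFE3 and MITF bind E-boxes in the promoters of many lysosomal genes, and the kinase complex mTORC1 holds them in the cytoplasm when nutrients are plentiful. The question addressed here is whether this program differed in MKs, as sorted, of mice in which an autophagy gene was targeted.

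RefSeq promoter windows, which run from 250 bases before to 50 bases after each transcription start, were given on mouse build GRCm38.p6 for 39 of the 44 genes. Npc1, Galns, Ctsh, Ctsb and Asah1 had no entry. The E-box CACGTG, which reads the same on both strands, was found for 12 of the 39 genes (30.8%), compared with 11.7% of the 9775 tested genes with an entry and 8.09% of all 27025 genes with an entry. The 12 genes were Ctsa, Ctsd, Ctsl, Lgmn, Gaa, Gla, Glb1, Naglu, Arsa, Sgsh, Lamp1 and Mcoln1. The longer form TCACGTG, read on either strand and containing the first, was present for 11 of the 12 (28.2% of the 39, compared with 6.97% of tested genes). The form TCACGTGA was present for 4 genes (10.3%, compared with 2.18%), namely Ctsa, Ctsd, Mcoln1 and Gla. The longest form searched, in which G precedes and C follows TCACGTGA, was present for 0 of the 39 (0.788% of tested genes). Runs around these matches are shown, because they are the letters that MiT/TFE factors are known to bind. Each is given 5′ to 3′ on the strand of the gene with CACGTG in capitals, at chr8:13159085-13159166 (plus strand) for Lamp1, chr2:164833746-164833798 (plus) for Ctsa, chr8:3500433-3500494 (plus) for Mcoln1, chrX:134601179-134601247 (minus) for Gla, chr7:142387905-142387940 (minus) for Ctsd and chr11:119267808-119267843 (plus) for Gaa.
Lamp1: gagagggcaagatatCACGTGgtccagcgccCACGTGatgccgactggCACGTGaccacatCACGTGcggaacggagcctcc
Ctsa: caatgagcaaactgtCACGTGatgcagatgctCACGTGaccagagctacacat
Mcoln1: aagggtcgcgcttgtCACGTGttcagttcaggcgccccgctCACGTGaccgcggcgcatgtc
Gla: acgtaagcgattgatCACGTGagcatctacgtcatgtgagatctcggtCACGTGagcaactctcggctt
Ctsd: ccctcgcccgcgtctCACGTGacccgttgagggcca
Gaa: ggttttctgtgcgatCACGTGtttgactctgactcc

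Lamp1 held 4 matches within this run, the first 61 bases before its transcription start. For comparison, the 250 bases before the start of Ctss, the protease with the largest difference between genotypes below, lie at chr3:95526536-95526785 on the plus strand. This window held no CACGTG. The capitals mark its matches to the general E-box CANNTG, which also covers CACGTG and was present in the windows of 67.6% of tested genes. A match, or its absence from a window, is a property of the sequence and says nothing of which factor was bound in these cells.
Ctss: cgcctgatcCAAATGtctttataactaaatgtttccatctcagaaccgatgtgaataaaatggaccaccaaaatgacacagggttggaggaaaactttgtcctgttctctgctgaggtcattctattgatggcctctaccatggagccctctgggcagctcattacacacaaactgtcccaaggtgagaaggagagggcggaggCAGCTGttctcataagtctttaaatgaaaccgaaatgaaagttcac

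Total counts per library lay between 16467560 and 17156728, and the lowest count of any of the 44 genes in any library was 139. The targeted gene, Becn1, was at 118 ± 9.37 CPM (counts scaled by TMM-corrected library size; mean and SD of 3 libraries) in Becn1f/f and 107 ± 2.74 CPM (n = 3) in the libraries labelled Becn1f/f;Pf4-iCre. The log2 fold change of Becn1 was -0.15 (SE 0.12, adjusted p = 0.936 by the quasi-likelihood test of edgeR, corrected after Benjamini and Hochberg over all genes tested), and the values are sums over the whole gene. Among markers of MKs, Itga2b (CD41) and Nfe2 had mean FPKM (fragments per transcript length and sequencing depth) of 52.5 and 92.5, whereas Pf4, Ppbp, Gp9 and Gp1ba had 13.3, 7.06, 2.09 and 1.38. Pf4, whose regulatory sequence drives iCre, was itself called lower, at 17.9 FPKM in Becn1f/f and 8.80 FPKM in Becn1f/f;Pf4-iCre with a log2 fold change of -1.01 (adjusted p = 0.423 by edgeR). It was the only 1 of the 16 tested markers of MKs and platelets with a P under 0.05, which 6.31% of all genes tested had. The neutrophil genes S100a8 and Ngp had 9482 and 2969 FPKM. Over the lists, the 16 neutrophil markers ranged from 16.6 to 9482 FPKM (median 682). The 18 listed markers of MKs and platelets ranged from 0.19 to 92.5 FPKM (median 1.99). The share of the RNA that came from MKs was not measured, so the levels below are those of the sorted samples. In such bulk samples, fewer cells of a type and less RNA per cell cannot be told apart.

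The lysosomal genes were expressed well above the typical gene. Their median FPKM was 36.5, compared with 12.3 over the genes tested, and 37 of the 44 lay above that of the genes tested. Psap, the precursor of the saposins that help enzymes reach sphingolipids, was the highest with a mean of 1848 FPKM and made up 33.6% of the summed CPM of the 44 genes. Ctsb, Ctss, Lamp1 and Ctsd followed at 373, 367, 353 and 343 FPKM. The lowest were Arsg and Mitf at 3.68 and 4.15 FPKM, and Arsg still lay at percentile 44.9 of all genes. Tfeb and Tfe3 were present at 27.4 and 22.1 FPKM, above Mitf in each of the 6 libraries.

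**Figure D1:**
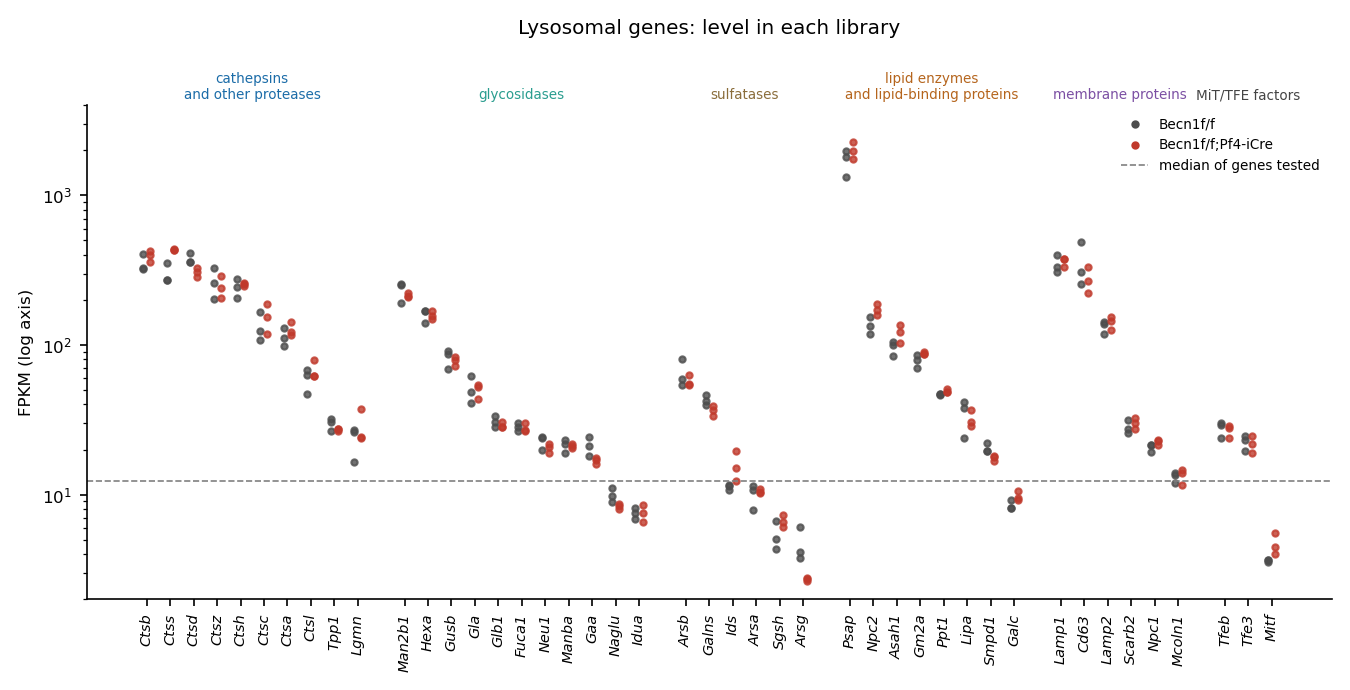
FPKM on a log axis for each of the 44 genes, grouped by role and ordered by mean level, with 1 point per library (grey for Becn1f/f, red for Becn1f/f;Pf4-iCre) and the median of the genes tested as a dashed line. Psap stands above all others, Ctss and Arsg are separated by genotype, and Tfeb, Tfe3 and Lamp1 are interleaved.

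Between the genotypes, most lysosomal genes differed little. Of the 44, 24 were higher and 20 lower in Becn1f/f;Pf4-iCre. Their median log2 fold change was 0.03, compared with -0.02 over all genes tested. The size of the log2 fold change was under 0.25 for 31 of the 44, and its median was 0.14, compared with 0.13 over all genes tested. The study's methods call a gene at a 1.5-fold difference and a P under 0.05 before adjustment, which 2.3% of all genes tested passed. Of the 44, 0 were called higher (1.36% of all genes tested) and 1 was called lower (0.938%), the sulfatase gene Arsg. At an unadjusted P under 0.05 with no fold threshold there were 7 genes (15.9%, compared with 6.31% of all genes tested). Of these, Ctss, Ids, Npc2, Mitf and Asah1 were higher (11.4%, compared with 3.92%) and Arsg and Gaa were lower (4.55%, compared with 2.39%). After adjustment 0 were left at 0.05 by edgeR (0.0408% of all genes tested) and 1 by DESeq2, namely Ctss with an adjusted p of 0.0466. Without Becn1f/f;Pf4-iCre library 2, only Ctss and Arsg of the 7 had a P under 0.05, and with the replicate number as a block there were 4, namely Ctss, Ids, Npc2 and Arsg. Every library of one genotype lay above every library of the other for 15 genes, 8 higher (18.2%, compared with 5.42% of all genes tested) and 7 lower (15.9%, compared with 5.18%). The 44 genes were chosen with earlier results of these data known and were better expressed than the typical gene. The shares over all genes tested are therefore no matched reference, and no conclusion is drawn from the excess. The lists of other genes and markers below were also chosen with such results known.

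**Figure D2:**
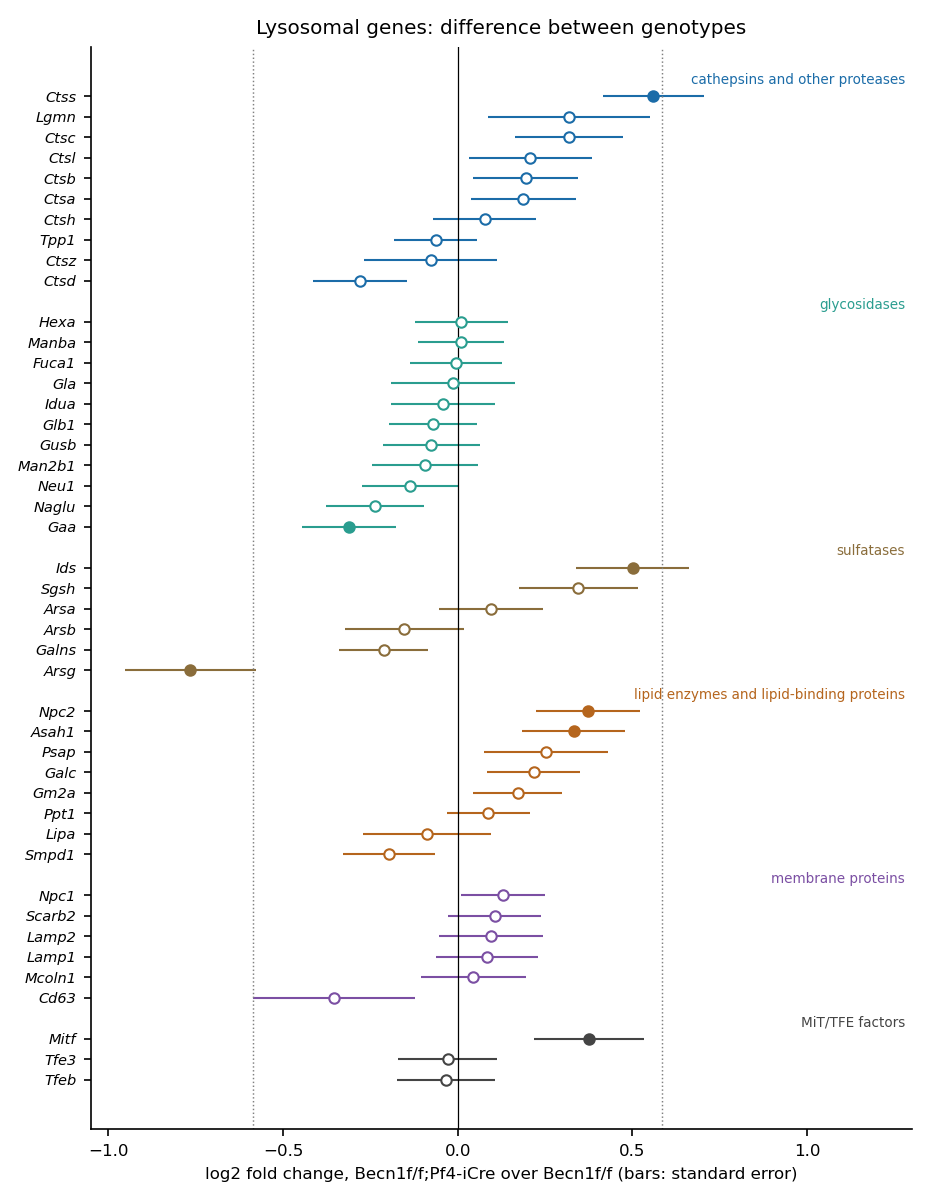
Log2 fold change of each of the 44 genes (points) with its standard error (bars), grouped by role, where values right of 0 are higher in Becn1f/f;Pf4-iCre. Filled points have an unadjusted P under 0.05 by edgeR, and dotted lines mark a fold change of 1.5, which Arsg alone passes.

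Among the cathepsins and other proteases, 7 of 10 were higher in Becn1f/f;Pf4-iCre and 3 lower (median log2 fold change 0.19); Ctsz, among the 3, was at 0.03 with trends in GC content and transcript length taken out. Ctss encodes cathepsin S, a cysteine protease that trims the invariant chain of MHC class II. It was at 288, 366 and 272 CPM in Becn1f/f libraries 1, 2 and 3 and at 476, 443 and 446 CPM in Becn1f/f;Pf4-iCre libraries 1, 2 and 3. Every Becn1f/f;Pf4-iCre library was above every Becn1f/f library, and the fold was 1.47. The log2 fold change of Ctss was 0.56 (SE 0.15, unadjusted P = 0.0024, adjusted p = 0.337 by edgeR), just under the fold threshold. It lay between 0.48 and 0.70 over the 18 alternatives, with a P under 0.05 in each; without Becn1f/f library 2, the highest of its group, it was 0.70 and Ctss passed both thresholds. The summed level of 10 markers of monocytes and dendritic cells was separate in the same direction, at 3403 to 3830 CPM in Becn1f/f and 4600 to 4744 CPM in Becn1f/f;Pf4-iCre. F13a1 alone, described below, made up a large part of both sums.

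Ctsd, which encodes the aspartic protease cathepsin D, went the other way. Its levels were 591, 573 and 642 CPM in Becn1f/f and 547, 451 and 490 CPM in Becn1f/f;Pf4-iCre. The genotypes did not overlap, but the log2 fold change of -0.28 (SE 0.14, unadjusted P = 0.0616, adjusted p = 0.822 by edgeR) did not pass. It lay between -0.30 and -0.17 over the alternatives that kept all libraries. In GENCODE M21 on GRCm38, 31.5% of the exon bases of Ctsd also belong to the overlapping gene Gm49369 on the same strand, so its counts are uncertain. Ctsb encodes cathepsin B, a cysteine protease, and had 711, 829 and 663 CPM in Becn1f/f and 948, 827 and 744 CPM in Becn1f/f;Pf4-iCre. These values overlapped, as 2 of the 3 Becn1f/f;Pf4-iCre libraries were below the highest Becn1f/f library. Ctsc (dipeptidyl peptidase I, which activates granule serine proteases) had a log2 fold change of 0.32, Lgmn (asparaginyl endopeptidase) 0.32, Ctsl 0.21, Ctsa (carboxypeptidase that protects beta-galactosidase and neuraminidase) 0.19 and the aminopeptidase Ctsh 0.08, and none had a P under 0.05. That of Lgmn was 0.04 without Becn1f/f;Pf4-iCre library 1 and 0.11 without Becn1f/f library 3. The carboxypeptidase Ctsz and the tripeptidyl peptidase Tpp1 were at -0.08 and -0.06.

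The glycosidases, which remove sugars from glycogen, glycoproteins, glycolipids and glycosaminoglycans, were at or slightly below the Becn1f/f level. Of the 11, 9 were lower and 2 higher, and their log2 fold changes ranged from -0.31 to 0.01 around a median of -0.07. The signs of Fuca1, Hexa, Manba, Gla and Idua, all within 0.05 of 0, changed under at least 1 other scaling or model. Gaa, the acid alpha-glucosidase that degrades glycogen, had the lowest fold change of the group. It was at 60.1, 67.1 and 75.5 CPM in Becn1f/f and at 58.0, 51.2 and 54.3 CPM in Becn1f/f;Pf4-iCre, so all 3 of the latter were lower, library 1 by little. Its log2 fold change was -0.31 (SE 0.13, unadjusted P = 0.0402, adjusted p = 0.756 by edgeR), and its P was under 0.05 in 11 of 18 alternatives. It was -0.19 with GC content and transcript length trends taken out. Naglu, which acts on heparan sulfate, also did not overlap between genotypes and had a log2 fold change of -0.24. That of Naglu lay between -0.25 and -0.11 over the alternatives that kept all libraries. Neu1 (neuraminidase) was at -0.14, Man2b1 (alpha-mannosidase) at -0.09, Gusb (beta-glucuronidase) at -0.08 and Glb1 (beta-galactosidase) at -0.07. Idua (alpha-iduronidase) was at -0.04, Gla (alpha-galactosidase) at -0.01, Fuca1 (alpha-fucosidase) at -0.01, Manba (beta-mannosidase) at 0.01 and Hexa (a subunit of beta-hexosaminidase) at 0.01.

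The sulfatases held both the largest positive log2 fold change after that of Ctss and the most negative one of the 44 genes. Arsg, arylsulfatase G, acts on heparan sulfate, and it fell from 13.2, 12.9 and 18.9 CPM in Becn1f/f to 9.47, 8.38 and 8.61 CPM in Becn1f/f;Pf4-iCre. All 3 Becn1f/f;Pf4-iCre libraries were below all Becn1f/f libraries, and Becn1f/f library 3 was the highest. The log2 fold change of Arsg was -0.77 (SE 0.19, unadjusted P = 0.0015, adjusted p = 0.295 by edgeR), a fold of 0.588. Its P was under 0.05 in each of the 18 alternatives, but without Becn1f/f library 3 the log2 fold change was -0.56 and the fold threshold was no longer passed.

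Ids encodes iduronate 2-sulfatase, which acts on heparan and dermatan sulfate. It was at 55.1, 48.9 and 51.0 CPM in Becn1f/f and at 59.0, 90.1 and 70.2 CPM in Becn1f/f;Pf4-iCre. The 3 Becn1f/f libraries were close together and all lower, while the Becn1f/f;Pf4-iCre libraries were spread. The log2 fold change of Ids was 0.50 (SE 0.16, unadjusted P = 0.0092, adjusted p = 0.479 by edgeR). It was 0.32, with a P no longer under 0.05, without Becn1f/f;Pf4-iCre library 2, and 0.63, past both thresholds, without library 1. The log2 fold changes of Sgsh (sulfamidase), Arsa, Arsb and Galns (sulfatases of sulfatide, dermatan sulfate and keratan sulfate) were 0.35, 0.09, -0.15 and -0.21, with no P under 0.05. That of Galns lay between -0.23 and -0.12 over the alternatives that kept all libraries. Strand was not stated for the counting, and 48.2% of the exon bases of Arsb, 21.9% of those of Sgsh and 19.8% of those of Arsa overlap exons of a gene on the opposite strand, compared with 1.39% for Arsg. The largest such overlaps with 1 gene among the proteases were 28.2% for Ctsl, 16.3% for Ctsb and 13.5% for Ctsa.

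**Figure D3:**
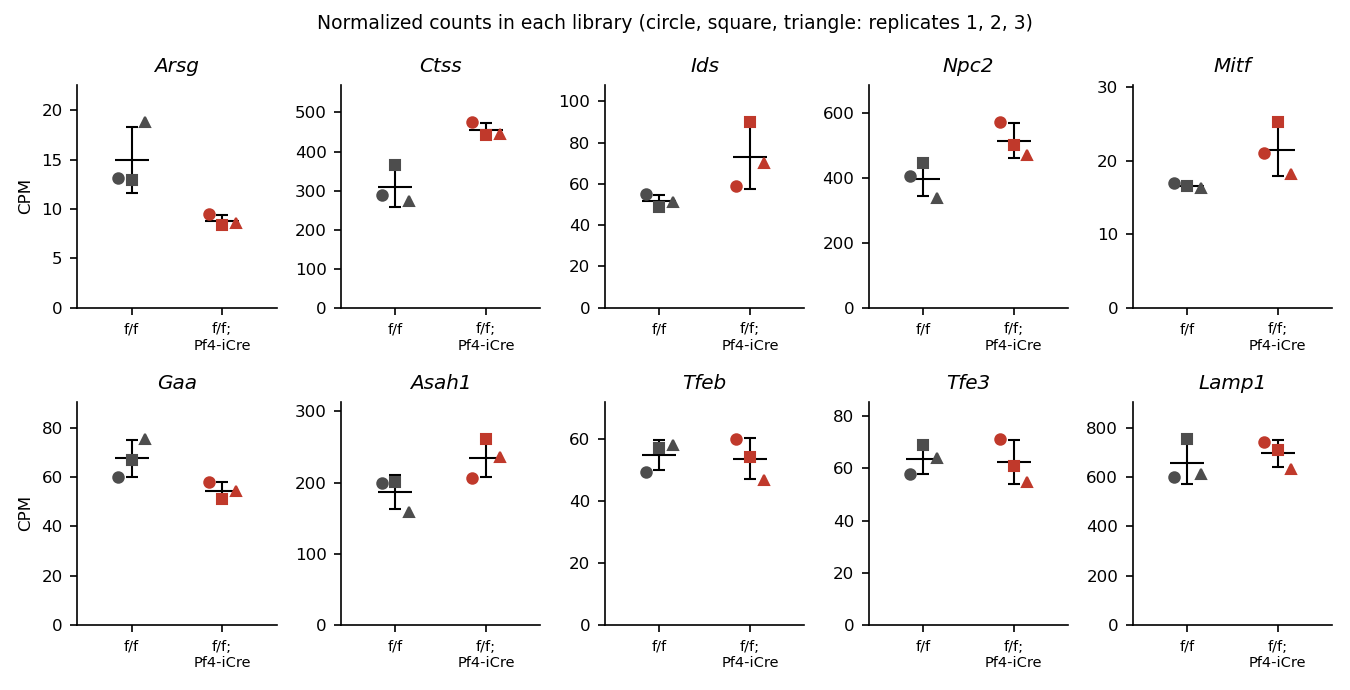
CPM in each library for the 7 genes with an unadjusted P under 0.05 and for Tfeb, Tfe3 and Lamp1; black lines are the mean and SD of 3 libraries. Points of the genotypes are separate in the first 7 panels, by little for Asah1, Gaa, Npc2, Ids and Mitf, and overlap for Tfeb, Tfe3 and Lamp1.

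Among the lipid enzymes and lipid-binding proteins, 6 of 8 were higher and 2 lower (median log2 fold change 0.195), and 5 of the 8 did not overlap between genotypes (10.6% of all genes tested). Npc2 is a soluble protein that hands cholesterol to Npc1 in the lysosomal membrane. It was at 406, 446 and 339 CPM in Becn1f/f and at 572, 501 and 469 CPM in Becn1f/f;Pf4-iCre. The latter were all higher, and the log2 fold change of Npc2 was 0.37 (SE 0.15, unadjusted P = 0.0276, adjusted p = 0.711 by edgeR). Asah1, acid ceramidase, had 200, 201 and 159 CPM in Becn1f/f and 206, 261 and 236 CPM in Becn1f/f;Pf4-iCre. Library 1 of Becn1f/f;Pf4-iCre was only just above the highest Becn1f/f library. The log2 fold change of Asah1 was 0.33 (SE 0.15, unadjusted P = 0.0436, adjusted p = 0.778 by edgeR), with a P under 0.05 in 11 of 18 alternatives, compared with 15 of 18 for Npc2.

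Psap, the most abundant of the 44 transcripts by FPKM, overlapped between genotypes. Its levels were 3201, 4558 and 4049 CPM in Becn1f/f and 5474, 4532 and 4062 CPM in Becn1f/f;Pf4-iCre. Only library 1 of Becn1f/f;Pf4-iCre exceeded all of the Becn1f/f libraries, and the log2 fold change of 0.25 (SE 0.18, adjusted p = 0.902 by edgeR) did not pass. Galc (galactosylceramidase) and Gm2a (the activator protein for ganglioside breakdown) did not overlap between genotypes and had log2 fold changes of 0.22 and 0.17. Smpd1, acid sphingomyelinase, did not overlap in the opposite direction at -0.20. Over the alternatives that kept all libraries, Galc lay between 0.08 and 0.22 and Smpd1 between -0.21 and -0.10. Ppt1 (palmitoyl-protein thioesterase) and Lipa (acid lipase) were at 0.09 and -0.09. The P of these 5 genes was above 0.05.

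None of the 6 membrane proteins had a P under 0.05. Lamp1 and Lamp2 are heavily glycosylated proteins that line the inner face of the membrane. Lamp1, the gene with 4 E-boxes in the run above, had 601, 755 and 613 CPM in Becn1f/f and 743, 711 and 633 CPM in Becn1f/f;Pf4-iCre. Lamp2 had 413, 369 and 312 CPM in Becn1f/f and 344, 427 and 398 CPM in Becn1f/f;Pf4-iCre. Both overlapped between genotypes, with log2 fold changes of 0.08 (SE 0.14) and 0.10 (SE 0.15); Lamp2 was at -0.02 with trends in GC content and transcript length taken out. Scarb2 (LIMP-2, which carries glucocerebrosidase to lysosomes), Npc1 and the calcium channel gene Mcoln1 were at 0.11, 0.13 and 0.04, and of the 6 genes Npc1 alone did not overlap between genotypes. Cd63, a tetraspanin that is also found on platelet granules, was at -0.36 with a standard error of 0.23. Its log2 fold change was -0.02 without Becn1f/f library 1.

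Of the transcription factors, Tfeb and Tfe3 differed between genotypes by less than the spread between libraries. Tfeb had 49.4, 57.2 and 58.3 CPM in Becn1f/f and 60.1, 54.2 and 46.9 CPM in Becn1f/f;Pf4-iCre, and both the highest and the lowest library were Becn1f/f;Pf4-iCre. Tfe3 had 57.9, 69.2 and 63.8 CPM in Becn1f/f and 71.3, 61.1 and 54.8 CPM in Becn1f/f;Pf4-iCre, again with the highest and the lowest library in Becn1f/f;Pf4-iCre. The log2 fold changes were -0.03 for Tfeb (SE 0.14, adjusted p = 0.99 by edgeR) and -0.03 for Tfe3 (SE 0.14), and that of Tfeb was 0.12 with GC content and transcript length trends taken out. Mitf had 16.9, 16.6 and 16.3 CPM in Becn1f/f and 21.1, 25.3 and 18.2 CPM in Becn1f/f;Pf4-iCre. Its 3 Becn1f/f libraries were nearly equal and below all others, and the log2 fold change of Mitf was 0.38 (SE 0.16, unadjusted P = 0.0342, adjusted p = 0.741 by edgeR). Its P was under 0.05 in 8 of 18 alternatives, the fewest of the 7 genes. These are transcript levels, and the phosphorylation and nuclear entry that control the factors were not measured.

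Log2 fold changes lay on both sides of 0 among the genes with an E-box. The 12 genes with CACGTG had a median log2 fold change of 0.06, with 7 higher and 5 lower, and the 27 genes without it one of -0.01. Of the 7 genes with a P under 0.05, Gaa was the only one with CACGTG in its window, while Asah1 had no entry.

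Other genes of the pathway were examined with 5 further lists of 93 genes, of which 92 were tested. Of these, 44 were higher and 48 lower, none was called in either direction, and 4 had an unadjusted P under 0.05 (4.35%, compared with 6.31% of all genes tested), all of them higher. Of the 17 tested subunits of the V-ATPase, 6 were higher and 11 lower (median log2 fold change -0.03), and none had a P under 0.05; the smallest P values were those of Atp6v0a1 and Atp6v1e1, at -0.16 and -0.15. Of 14 genes for mannose 6-phosphate tagging and sorting, 4 were higher and 10 lower with none at a P under 0.05. The smallest P values were those of the receptor gene Igf2r at -0.41 (SE 0.23) and the adaptor gene Gga2 at -0.22. Relative to the mean of the 6 libraries, the median log2 CPM over this list was lower in each Becn1f/f;Pf4-iCre library than in any Becn1f/f library. The gap was small, with nearest values of -0.029 and -0.012. The summed level of the list overlapped, at 1746 to 1795 CPM in Becn1f/f and 1719 to 1779 CPM in Becn1f/f;Pf4-iCre. Of 21 genes of mTORC1 and its control of TFEB, 7 were higher and 14 lower, also with none at a P under 0.05, and Lamtor3 and Rheb were at 0.26 and 0.25.

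On the list of other enzymes, mostly hydrolases, 13 of 22 genes were higher, with 3 at a P under 0.05 (3.92% of all genes tested were higher at this P). Scpep1, a serine carboxypeptidase, was at 112 ± 15.3 CPM in Becn1f/f and 158 ± 23.6 CPM in Becn1f/f;Pf4-iCre (SD of 3 libraries), and its log2 fold change was 0.50 (adjusted p = 0.455 by edgeR). Naaa, an acid amidase of N-acylethanolamines, was at 159 ± 25.8 and 214 ± 4.74 CPM, at a log2 fold change of 0.43. Hgsnat, the membrane acetyltransferase for heparan sulfate, was at 85.6 ± 3.11 and 108 ± 5.40 CPM, at a log2 fold change of 0.33. The genotypes were separate for each of the 3 genes, as they were in this direction for 5.42% of all genes tested. Of 18 other membrane proteins, 14 were higher; Laptm4a, a small membrane protein of late endosomes and lysosomes, was at 0.39 (adjusted p = 0.528 by edgeR) and the amino acid sensor gene Slc38a9 at 0.24.

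The summed level of the 44 genes overlapped between genotypes, at 11494, 13133 and 11846 CPM in Becn1f/f and 14755, 13078 and 12319 CPM in Becn1f/f;Pf4-iCre, a ratio of means of 1.10. Library 1 of Becn1f/f;Pf4-iCre was the highest and library 1 of Becn1f/f the lowest, and Psap had its own highest and lowest values in the same libraries. Some markers of other blood cells moved with genotype. Of 10 markers of monocytes and dendritic cells, 7 were higher and 3 lower, with the sums given beside Ctss. At a P under 0.05, 6 were higher (3.92% of all genes tested were) and 0 lower. The 3 lower ones, Itgax, Siglech and Xcr1, had log2 fold changes of -0.05, -0.03 and -0.02. Within the sums, F13a1 alone had means of 1746 CPM in Becn1f/f and 2295 CPM in Becn1f/f;Pf4-iCre. The means of the sums were 3629 and 4666 CPM. Whether the F13a1 RNA came from monocytes or from MKs was not tested. Of 14 macrophage markers, 11 were tested and 4 were higher at a P under 0.05, with sums of 702 to 755 and 753 to 917 CPM, while Marco and Timd4 were at 0 in some libraries of each genotype. Of 16 neutrophil markers 7 were lower at a P under 0.05 (2.39% of all genes tested were), with sums of 12358 to 17497 and 9598 to 12926 CPM. Of 14 erythroid markers 10 were lower at a P under 0.05, with sums of 605 to 876 and 456 to 582 CPM. Lysosomal genes are expressed in all of these cells, and cathepsin S is known from antigen-presenting cells in particular. The part of other cells in the differences of Ctss, Npc2, Ids, Asah1, Mitf, Gaa and Arsg was not tested.

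**Figure D4:**
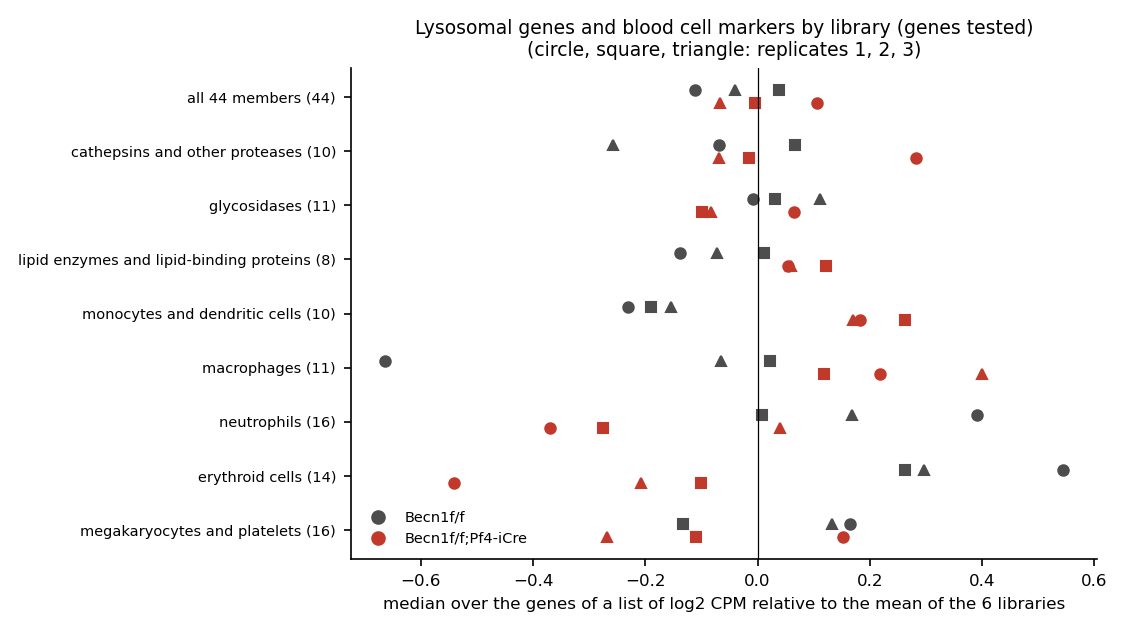
Median log2 CPM of each list in each library relative to the mean of the 6 libraries (number of genes tested in parentheses; grey for Becn1f/f, red for Becn1f/f;Pf4-iCre). The medians of the 44 lysosomal genes, of the proteases and of the glycosidases are interleaved between genotypes, and among the lists plotted those of the 8 lipid genes are separate, as are those of the markers of monocytes and dendritic cells, macrophages and erythroid cells.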

How the data were processed

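Per the submitters' processing notes and the methods, the authors filtered reads, mapped them with HISAT (Bowtie2 is also listed) to GRCm39 and deposited an estimated count, not normalized, and an FPKM value, scaled by the authors for length and library size, for each gene. The counter and strand setting are not given in the sources used here. The table's 16 further per-sample columns, 4 of them of 1 library matching no sample, and 8 columns of group means were not used.

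The estimated counts were rounded, filtered with filterByExpr, scaled by TMM and tested over all 12256 genes by the quasi-likelihood method of edgeR 4.0.16 (R 4.3.3) with genotype as the factor and Benjamini-Hochberg correction. Standard errors (SE) are the size of the log2 fold change divided by the root of F. Alternatives were DESeq2 1.42.0, its size factors, upper-quartile scaling, limma 3.58.1 (voom, or log2 of FPKM plus 1 or 0.1), other filters, a replicate block, removal of GC and length trends (11953 genes matched in GENCODE M21, GRCm38) and leaving out each library. The steps were tested on simulated data. Total counts of 16467560 to 17156728 limit counting error; the 3 libraries per genotype limit precision. Chi-square values per degree of freedom of 15.2 to 50.3 set replicates of a genotype apart beyond counting error. Members and gene lists were chosen with earlier results of these data known. All 44 members are named. Values per library are given for those with an unadjusted P under 0.05, the 5 highest by FPKM, Tfeb, Tfe3, Mitf, Lamp1 and Lamp2. Of each other pathway list, the 2 genes with the smallest P, any past both thresholds and the others with a P under 0.05 are named, without values per library.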

Additional observations from a re-analysis of the deposited data

How the results depend on the processing

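Of 810 log2 fold changes of the 44 genes and Becn1 under 18 alternatives, 764 kept their sign and 722 also their side of an unadjusted P of 0.05; the causes of the changes were not tested. The number of lysosomal genes with a P under 0.05, 7 in the fit reported, was 2 to 7 when each library was left out (1 to 5 higher, 1 to 3 lower), as low as 2 without Becn1f/f;Pf4-iCre library 2. The numbers called higher and called lower were each 0 to 1, and the call of Arsg was lost without Becn1f/f library 3. At an adjusted p under 0.05 the number of lysosomal genes was 0 when each library was left out, and 1 with DESeq2 on all libraries. The labels do not say whether same-numbered libraries were paired. Correlations of same-numbered deviations were 0.07, -0.28 and 0.20. Those of differently numbered libraries of opposite genotype spanned -0.30 to 0.24, so the values cannot decide whether the libraries were paired. With the replicate block, 4 genes had a P under 0.05, 3 higher and 1 lower. The 3 fits of limma on log2 FPKM gave 3 higher genes. Over all genes tested, the Spearman correlation of log2 fold change with GC content was -0.34, and 0.023 with GC and length trends taken out. Median GC content was 53.5% for the glycosidases, 49.6% for the proteases and 46.7% for the lipid list, compared with 49.7% over genes tested. With GC and length trends taken out, 1 was lower and 7 higher, and with the replicate block as well, 1 lower and 8 higher. Only 5 of the 7 genes of the fit reported were among them in each case. Of the other pathway genes, 3 to 9 had a P under 0.05 and 0 to 2 were called when each library was left out (9 and 2 without Becn1f/f library 1), and 7 had one with the GC and length trends and the replicate block. With GC and length trends taken out, and then also with the block, log2 fold changes were 0.12 and 0.12 for Tfeb, 0.031 and 0.038 for Ctsz, 0.067 and 0.070 for Fuca1, 0.037 and 0.032 for Idua and -0.016 and -0.012 for Lamp2. Near 0, Fuca1 was at 0.000375 with DESeq2, Gla at 0.00576 with voom and 0.00544 with the block, Hexa at -0.00341 and Manba at -0.00469 with upper-quartile scaling, and Hexa at -0.00524 or -0.00525 and Manba at -0.00444 or -0.00443 in the FPKM fits. Leaving out each library gave Tfeb -0.12 to 0.058, Tfe3 -0.13 to 0.059, Ctsh -0.041 to 0.21, Ctsz -0.25 to 0.11, Fuca1 -0.084 to 0.040, Gla -0.16 to 0.20, Hexa -0.061 to 0.057, Idua -0.10 to 0.056, Man2b1 -0.22 to 0.015, Manba -0.037 to 0.055, Arsa -0.017 to 0.18, Arsb -0.27 to 0.074, Lipa -0.27 to 0.065, Lamp2 -0.00372 to 0.20 and Mcoln1 -0.049 to 0.15.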
